A study of Mus musculus with 6 samples.

Results

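The regions described here are ATF4 ChIP-seq peaks that lay in a CpG island but outside an annotated promoter. ATF4 ChIP-seq was performed on MEFs, fibroblasts grown from mouse embryos, of the strain 129S6/SvEvTac, either WT or lacking GCN2 (GCN2-/-, called GCN2 KO). Each genotype was kept for 24 h in complete DMEM (+Leu) or in DMEM lacking leucine (-Leu), and the ATF4 antibody was the same in all of them. Each of the 4 conditions had 1 library, for which the chromatin of 2 independent experiments was pooled. Differences between conditions therefore have no replicates behind them, and none was tested. The headers of both -Leu lists name input DNA of leucine-fed cells as the control, and both lists of a genotype therefore share 1 input. The members are the rows of the 4 annotated peak lists whose detailed annotation begins with CpG and whose annotation begins with intron or Intergenic, and no other class of peak in the lists carried the CpG label. There were 138 of them among 17462 listed peaks. Of these, 37 were listed in WT with leucine and 55 without it, and 26 in GCN2 KO with leucine and 20 without it. Peaks that more than 1 list held at the same place, with centers 300 bp or less apart, were joined, which gave 114 sites.

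ATF4 is a bZIP transcription factor whose mRNA is translated when eIF2α is phosphorylated, and GCN2 is the eIF2α kinase that responds to amino acid shortage. ATF4 pairs with C/EBP family proteins on composite elements that join an ATF recognition sequence to a C/EBP one, with TGATGCAA as the core motif, and through them it controls genes of amino acid synthesis, amino acid transport and tRNA charging. CpG islands are stretches of DNA rich in C and G that keep many CpG dinucleotides, are mostly free of DNA methylation and often hold the start of a gene. They commonly run past the start into the first intron, and those far from known genes often hold unannotated starts. The core motif holds no CpG dinucleotide, unlike the palindromic cAMP response element TGACGTCA.

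The core motif lay within 50 bp of the peak center at 10 of the 113 sites on assembled chromosomes. The sequences of 9 of them are shown because these sites carry most of the strong and recurring members. Each is the mm10 reference written 5′ to 3′ on the strand that reads TGATGCAA, with the motif in capitals. Stretches are 60 bases long, or 30 where an annotated exon lies within those 60. The coordinates and the strand are chr2:92055592-92055621 (minus) for the site listed under Creb3l1, chr5:148399474-148399533 (minus) for Slc7a1, chr15:96699151-96699210 (plus) for Slc38a2 and chr11:100320500-100320529 (minus) for Eif1. They are chr3:98339193-98339252 (minus) for Phgdh, chr1:185363259-185363288 (minus) for Eprs, chr10:3973733-3973792 (plus) for Mthfd1l, chr3:95882050-95882079 (plus) for Ciart and chr5:66620410-66620469 (plus) for Apbb2.
Creb3l1: tgcttgctgtcTGATGCAAcagtttgcaac
Slc7a1: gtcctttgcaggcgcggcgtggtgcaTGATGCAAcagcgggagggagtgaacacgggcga
Slc38a2: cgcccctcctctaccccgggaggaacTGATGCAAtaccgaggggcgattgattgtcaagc
Eif1: ccccacccggcTGATGCAAcctaccggaag
Phgdh: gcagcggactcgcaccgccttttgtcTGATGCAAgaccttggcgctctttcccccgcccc
Eprs: cacccacgcgcTGATGCAAcccgcgcgggt
Mthfd1l: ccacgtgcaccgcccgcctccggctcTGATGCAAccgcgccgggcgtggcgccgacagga
Ciart: cgcctgccaggTGATGCAAtacctcccaac
Apbb2: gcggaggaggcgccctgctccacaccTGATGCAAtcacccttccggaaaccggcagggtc
The base after the motif was C at 5 of these 9 sites, T at 3 and G at 1, and A at none. The flanks of the motif are rich in C and G, which follows from the CpG island label.

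A further 6 sites held TGATGNAA with another base than C at the sixth position, which was A at 4 and T at 2. They are shown, with the same marking, to set the variants beside the core motif. Their positions are chr10:121625952-121626011 (plus) for Xpot, chr8:70158663-70158722 (plus) for Mef2b, chr11:31369466-31369525 (minus) for Stc2, chr17:46030572-46030631 (plus) for Vegfa, chr19:23135006-23135065 (plus) for Klf9 and chr7:126501987-126502016 (plus) for Atxn2l.
Xpot: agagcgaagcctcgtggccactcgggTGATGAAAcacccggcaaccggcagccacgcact
Mef2b: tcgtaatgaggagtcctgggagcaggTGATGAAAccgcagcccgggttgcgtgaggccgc
Stc2: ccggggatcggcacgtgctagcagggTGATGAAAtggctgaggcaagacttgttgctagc
Vegfa: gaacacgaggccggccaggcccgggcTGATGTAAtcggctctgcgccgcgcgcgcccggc
Klf9: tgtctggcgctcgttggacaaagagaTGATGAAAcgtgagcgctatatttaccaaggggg
Atxn2l: tcctcgacggcTGATGTAAccggcagttga
The next base was C at 4 of these sites and T at 2. The remaining 97 sites on assembled chromosomes had neither form within 50 bp of a member's center.

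The strongest member in all 4 lists was the site listed under Creb3l1, which encodes a bZIP factor anchored in the ER membrane. It was intergenic in the lists, 31.4 kb upstream of the Creb3l1 TSS. The nearest GENCODE transcript start was that of the noncoding RNA 2900072N19Rik, and the WT -Leu center lay 3766 bp downstream of it. The 200 bases at the center of the site, chr2:92055503-92055702 on the plus strand, overlap an annotated exon. They are printed in full because of the site's scores. The capitals mark the core motif, which is read here on the opposite strand.
Creb3l1 site: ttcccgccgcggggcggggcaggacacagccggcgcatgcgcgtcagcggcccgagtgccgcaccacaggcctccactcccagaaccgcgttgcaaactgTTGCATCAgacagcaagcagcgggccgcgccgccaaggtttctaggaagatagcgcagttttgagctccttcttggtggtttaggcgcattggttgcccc
In WT its score was 295 with leucine and 1066 without it, and in GCN2 KO it was 262 with leucine and 228 without it. The score is the peak caller's, a whole number from 13 up whose scale the sources used here do not state, and it was not normalized between lists. The WT -Leu score was the only one above 295, and the other 3 lay close together. By rank it was peak 19 (+Leu) and 23 (-Leu) of the WT lists and peak 5 (+Leu) and 2 (-Leu) of the GCN2 KO lists, and its centers lay 14 bp apart at most.

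Members were a small and similar part of every list. In WT they made up 0.763% of the peaks with leucine (95% Wilson interval 0.554 to 1.05) and 0.863% without it (0.664 to 1.12). In GCN2 KO they made up 0.729% with leucine (0.498 to 1.07) and 0.749% without it (0.485 to 1.15). The intervals overlap, and they cover counting error only. The ratio of members without to with leucine was 1.49 in WT (0.983 to 2.25) beside 1.31 for all peaks. In GCN2 KO it was 0.769 (0.433 to 1.37) beside 0.749 for all peaks, so in both genotypes the members' numbers moved about as the whole list did. The lists give no sequencing depth, and a change in binding per cell cannot be told apart from a change in the number of cells that carry it. No list measures GCN2 itself, so the genotype labels could not be checked.

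Most members lay close to a gene start. The rule leaves out promoter peaks, which reached 999 bp upstream of a TSS, and 114 of the 138 members lay downstream of theirs. Of the 138, 107 were intronic and 31 intergenic, and 94 lay in the first intron. The distance to the nearest TSS in the lists was 1 kb or less for 81 of them, and 5 kb or less for 107. The median distance was 721 bp (+Leu) and 741 bp (-Leu) in WT and 944 bp (+Leu) and 606 bp (-Leu) in GCN2 KO, against 29526 to 33292 bp for the other intron and intergenic peaks. Measured to every transcript start of GENCODE, 104 of the 137 members on assembled chromosomes lay 1 kb or less away. That set held 94 of the 106 intronic and 10 of the 31 intergenic members, whereas no intergenic member was that close to a TSS in the lists. Among the 10 were the peaks listed under Klf9, a zinc finger factor of the Krüppel-like family, at 126 bp from a start of the noncoding RNA 2410080I02Rik, and under Mknk2, a kinase of eIF4E, at 324 bp from another start of Mknk2. The peak listed under Eif3f, a subunit of the eIF3 initiation complex, was 187 bp from a start of Tub.

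**Figure D1:**
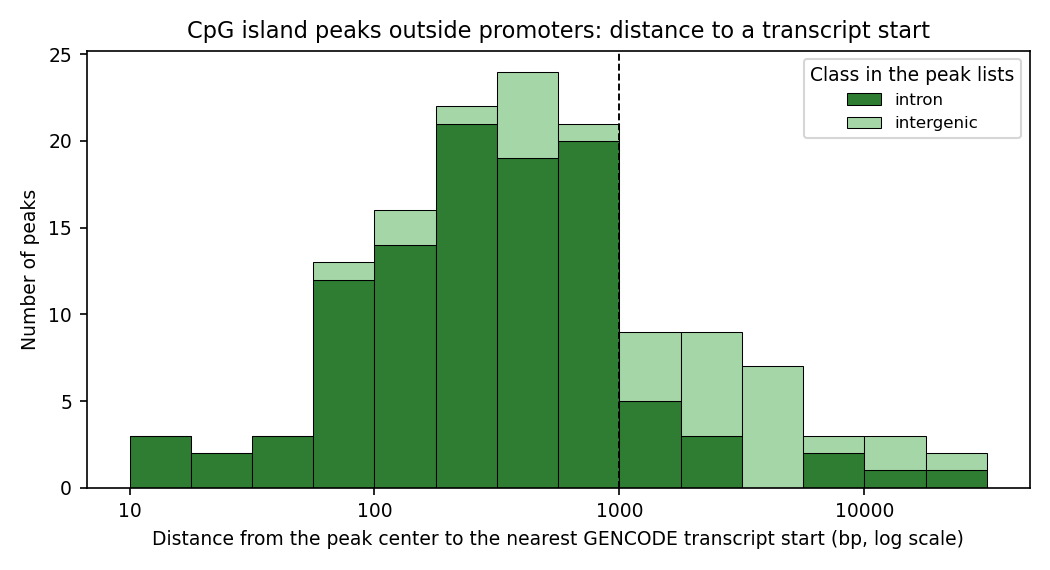
Number of members (y axis) by the distance in bp from the peak center to the nearest GENCODE transcript start (x axis, log scale), for the 137 members on assembled chromosomes of all 4 lists, with intronic and intergenic members stacked. The dashed line marks 1 kb: 104 members lie to its left, 10 of them intergenic.

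CpG content follows from the label and is given as a description. The median share of CpG dinucleotides among the members was 8% in both +Leu lists and 8.33% in both -Leu lists, and single members ran from 2.67% to 14.7%. In the other intron and intergenic peaks the median was 1.33% in each list, and in promoter peaks it was 2.67% to 4%. GC content had medians of 63.8% to 67.4% in members and 51.3% to 52.8% in the other intron and intergenic peaks. The repeat-masked share of the window had a median of 0% among members in each list, and 7.31% to 7.97% among the other intron and intergenic peaks. Among the 137 members with sequence, 2 had another match of 200 or more bases at 90% identity or better on an assembled chromosome. These were the peaks listed under Gm10471, with 3 further matches, and under G530011O06Rik, with 1, and neither recurred in another list.

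In each list a few members stood far above the rest. In WT the score ran from 13 to 295 with leucine (median 36) and from 19 to 1066 without it (median 37). In GCN2 KO it ran from 15 to 262 with leucine (median 30) and from 20 to 228 without it (median 30). The other intron and intergenic peaks had medians of 29 in both +Leu lists and 30 in both -Leu lists. Of the 37 WT +Leu members, 6 scored 100 or more (16.2%, 7.65 to 31.1), against 1.86% of all peaks of that list. Of the 55 in WT -Leu, 11 did (20%, 11.6 to 32.4), against 9.82%. In GCN2 KO, 3 of 26 did with leucine (11.5%, 4 to 29), against 0.897%, and 3 of 20 without it (15%, 5.24 to 36), against 0.487%. Of the promoter peaks, 16.8% in WT with leucine and 28.5% without it, and 14.5% in GCN2 KO with leucine and 3.39% without it, scored as high. The members' interval lay above the share of all peaks in each list, and it overlapped that of the promoter peaks in each. Among members within 1 kb of a GENCODE start, 18.5% (8.18 to 36.7) in WT with leucine and 18.6% (9.74 to 32.6) without it scored 100 or more, against 3.58% (2.06 to 6.16) and 11.5% (9.08 to 14.5) of the other intron and intergenic peaks at that distance. In GCN2 KO the shares were 10.5% (2.94 to 31.4) with leucine and 6.67% (1.19 to 29.8) without it, against 2.05% (0.945 to 4.41) and 1.37% (0.467 to 3.95), and the intervals overlapped in each list but WT +Leu. Of the 23 members of the 4 lists that scored 100 or more, 22 fell at sites held by 2 or more lists and 15 had the core motif. The 23 members fell at 13 sites, so a site in several lists was counted more than once. The same shares among all peaks that scored as high were not counted.

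**Figure D2:**
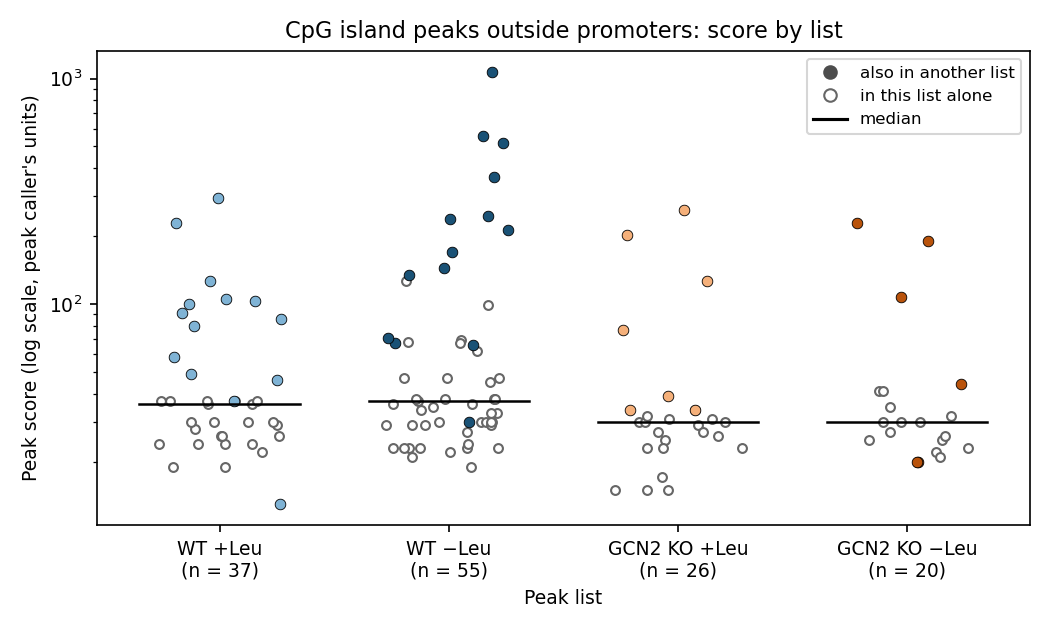
Score of every member (y axis, log scale, in the units of the peak caller) in the 4 lists (x axis), with filled points for members that another list also held, open points for members of 1 list alone and a line at the median. The filled points hold all values of 100 or more except 1, the WT -Leu peak at Mef2b with a score of 126.

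A small group of sites recurred between the lists, and most sites did not. Of the 114 sites, 17 had a peak of any class in 2 or more lists and 97 had a peak in 1 list. Of the 17, 3 were present in all 4 lists, 6 in 3 lists and 8 in 2. All 17 had a WT -Leu peak, and 16 had peaks in both WT lists. At 14 of the 17 sites the centers lay 100 bp or less apart, with a median span of 40 bp. The strongest member of a site had a median score of 170 at the 17 recurring sites (30 to 1066) and of 30 at the 97 others (15 to 126). At most recurring sites this is the highest of several scores, and at the others it is a single score, so part of the gap follows from the count. The same contrast was not computed over all peaks. CpG content differed little between the recurring sites and the others, with medians of 9.67% and 8%. The first intron held 12 of the 17 recurring sites (70.6%, 46.9 to 86.7) and 65 of the 97 others (67%, 57.2 to 75.6).

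The core motif was found mostly at recurring sites. It was present at 9 of the 17 recurring sites (52.9%, 31 to 73.8) and at 1 of the 96 others with sequence (1.04%, 0.184 to 5.67), and TGATGNAA at 12 of 17 (70.6%, 46.9 to 86.7) and 4 of 96 (4.17%, 1.63 to 10.2). The single exception was Ciart, a transcriptional repressor of the circadian clock, listed in WT -Leu alone with a score of 99. The recurring sites were also the higher-scoring ones, and the part of the score in this difference was not tested. A site counted if the window of any of its members held the motif, and most recurring sites had more than 1 such window. The same split was not counted over all peaks, so it cannot be called particular to members.

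Counted from the lists, 14 of the 37 WT +Leu members had a WT -Leu peak (37.8%, 24.1 to 53.9), against 6.35% of all WT +Leu peaks. In the other direction, 13 of the 55 WT -Leu members had a WT +Leu peak (23.6%, 14.4 to 36.3), against 4.85%. Within GCN2 KO, 4 of 26 +Leu members recurred without leucine (15.4%, 6.15 to 33.5), against 2.75%, and 4 of 20 -Leu members recurred with it (20%, 8.07 to 41.6), against 3.59%. Between genotypes, 4 of the 37 WT +Leu members had a GCN2 KO +Leu peak (10.8%, 4.29 to 24.7), against 1.92%, and 5 of the 55 WT -Leu members had a GCN2 KO -Leu peak (9.09%, 3.95 to 19.6), against 1.27%. Each of these intervals lay above the share of all peaks. Of the promoter peaks, 31.1% of those in WT +Leu recurred in WT -Leu and 12% of those in GCN2 KO +Leu recurred in GCN2 KO -Leu, and both shares lay inside the members' intervals.

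Members were also set beside other peaks as close to a gene start. Of the other intron and intergenic peaks within 1 kb of a GENCODE start, 11.6% in WT +Leu (8.63 to 15.5) and 9.26% in WT -Leu (7.08 to 12) recurred in another list. For members at that distance the shares were 37% (21.5 to 55.8) and 23.3% (13.2 to 37.7), and for members farther away 4 of 10 and 4 of 11. In GCN2 KO the corresponding shares were 6.85% (4.48 to 10.3) and 26.3% (11.8 to 48.8) with leucine, and 10% (6.73 to 14.7) and 26.7% (10.9 to 52) without it, where the intervals of the -Leu shares overlapped.

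In WT the core motif lay within 50 bp of the center in 9 of 37 members with leucine (24.3%, 13.4 to 40.1) and in 10 of 54 without it (18.5%, 10.4 to 30.8). In GCN2 KO it lay there in 4 of 26 members with leucine (15.4%, 6.15 to 33.5) and in 3 of 20 without it (15%, 5.24 to 36). Among all peaks of these lists it lay there in 2.71%, 6.95%, 1.07% and 1.09%. In the other intron and intergenic peaks the shares were 2.37% (1.95 to 2.87), 6.82% (6.18 to 7.52), 0.695% (0.455 to 1.06) and 0.933% (0.611 to 1.42), each below the members' interval. Beside the other intron and intergenic peaks within 1 kb of a GENCODE start, the members at that distance had the motif in 25.9% (13.2 to 44.7) against 5.97% (3.9 to 9.04) in WT with leucine, and in 18.6% (9.74 to 32.6) against 7.56% (5.6 to 10.1) without it. In GCN2 KO the shares were 15.8% (5.52 to 37.6) against 2.05% (0.945 to 4.41) with leucine and 13.3% (3.74 to 37.9) against 2.74% (1.26 to 5.85) without it, so at that distance the intervals overlapped in both -Leu lists. In all promoter peaks the shares were 12.6% (7.79 to 19.8), 15.4% (11.5 to 20.4), 12% (6.68 to 20.8) and 6.78% (2.67 to 16.2), which overlapped the members' intervals. Both strands were searched. With any sixth base, TGATGNAA was found in 29.7% of the members in WT with leucine and 27.8% without it, against 4.26% and 11% of all peaks, and in 15.4% and 15% of the members in GCN2 KO, against 2.23% and 2.26%. None of 274 equally wide windows placed 1 kb upstream and downstream of the members held the motif, which allows a share of up to 1.09%, and 0.19% to 0.232% of such windows beside the other intron and intergenic peaks did. Windows beside a site in several lists lay at nearly the same place and were counted once for each member, so the limit of 1.09% is too tight. The motif's middle was a median of 8.5 bp from the member's center in both WT lists, and 28.5 bp (4 members) and 15.5 bp (3 members) in GCN2 KO with and without leucine. For the other intron and intergenic peaks the medians were 13 bp and 12.5 bp in WT and 18.5 bp and 11.5 bp in GCN2 KO. The palindrome TGACGTCA was found in none of the 137 members, either within 50 bp or within 150 bp of the center, and among all peaks it lay within 50 bp in 0.0564% to 0.141%.

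**Figure D3:**
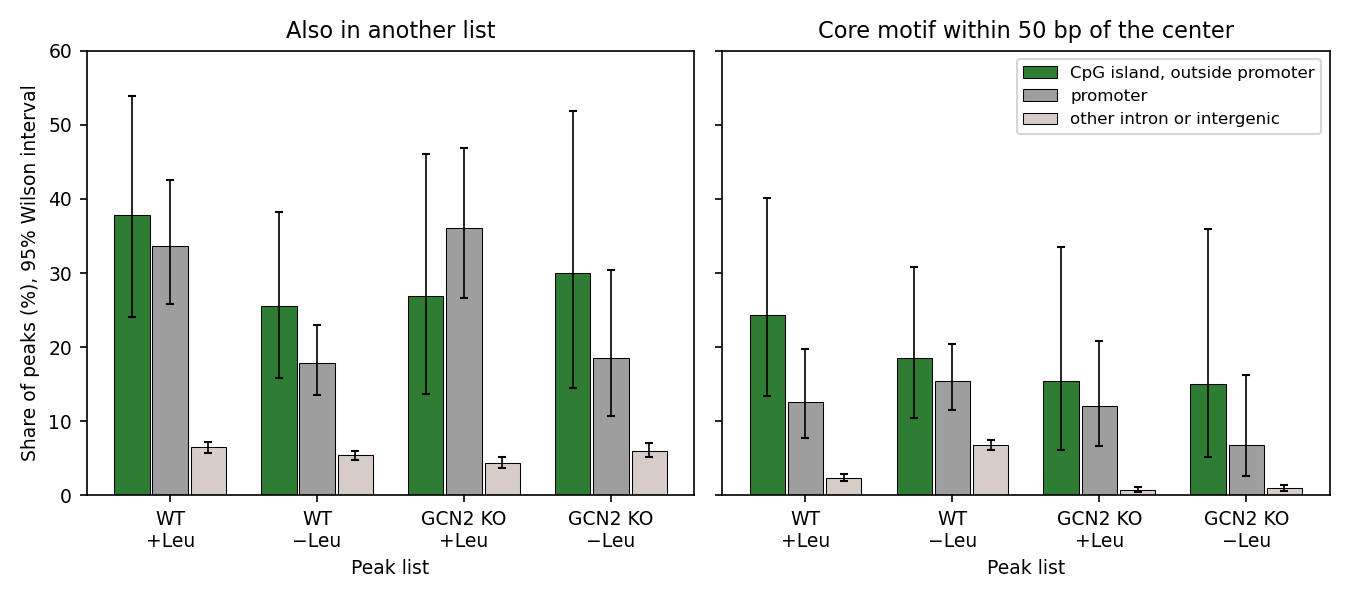
Left, share of peaks with a peak of any other list 300 bp or less away, and right, share with the core ATF4 motif within 50 bp of the center, both in percent with 95% Wilson intervals, for members, promoter peaks and the other intron and intergenic peaks of each list. Members stand at 25.5% to 37.8% on the left and 15% to 24.3% on the right, above the other intron and intergenic peaks in each list, with intervals that overlap those of promoter peaks.

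The 9 recurring sites with the core motif all scored higher in WT -Leu than in WT +Leu. The ratio ran from 1.45 to 5.43 with a median of 2.48. Over all 308 WT +Leu peaks with a WT -Leu partner the median ratio was 2.36, and 252 were higher without leucine, so the sites' median was close to that of all recurring peaks. Scores were not normalized between the lists, and 9.82% of all WT -Leu peaks reached 100, against 1.86% of WT +Leu peaks. By percentile of the score within its own list, Creb3l1, Cebpg and Eprs stood higher in WT -Leu. Eif1, Slc7a1, Slc38a2, Phgdh, Mthfd1l and Apbb2 stood lower there. Cebpg encodes C/EBPγ, a dimerization partner of ATF4. Its peak scored 103 in WT +Leu, 559 in WT -Leu and 20 in GCN2 KO -Leu, and none was listed in GCN2 KO +Leu. It lay in the first intron, 324 to 364 bp downstream of the TSS, and had the highest WT ratio of the 9. The GCN2 KO -Leu value was near the lowest scores of its list.

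Amino acid carriers and enzymes made up 4 of the 9. Slc7a1, the cationic amino acid transporter CAT1, had scores of 229 in WT +Leu, 517 in WT -Leu and 77 in GCN2 KO +Leu, in the first intron 371 to 406 bp from the TSS. Slc38a2, the neutral amino acid transporter SNAT2, had scores of 80, 245 and 34 in the same 3 lists, 513 to 545 bp from the TSS. Neither was listed in GCN2 KO -Leu, and the GCN2 KO +Leu score was below the WT +Leu score at both, though scores were not normalized between lists. By rank, Slc7a1 stood nearly alike, as peak 29 of WT +Leu (percentile 99.4) and peak 42 of GCN2 KO +Leu (98.8). Slc38a2 was peak 122 (97.5) and peak 950 (70.3). Phgdh, the enzyme that opens serine synthesis, scored 86 in WT +Leu and 212 in WT -Leu, and Mthfd1l, a mitochondrial enzyme that releases formate from the folate cycle, scored 58 and 144. Eprs, the synthetase that charges tRNAs for glutamate and proline, scored 46 and 170, only 175 and 177 bp from the TSS. These last 3 genes had no listed peak here in either GCN2 KO list.

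Eif1, a factor for start codon selection during translation initiation, was listed in all 4 conditions. Its WT scores were 105 with leucine and 239 without it, and its GCN2 KO scores were 127 with leucine and 20 without it. The WT score was higher without leucine and the GCN2 KO score was lower, but the GCN2 KO -Leu value was near the lowest scores of its list. The lists place the site in the first intron, 478 to 534 bp from the TSS, but another GENCODE transcript of Eif1 starts 12 to 44 bp from the 4 centers. Apbb2, an adaptor that binds the amyloid precursor protein, had its site 1577 and 1584 bp upstream of the TSS, with scores of 49 in WT +Leu and 71 in WT -Leu.

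**Figure D4:**
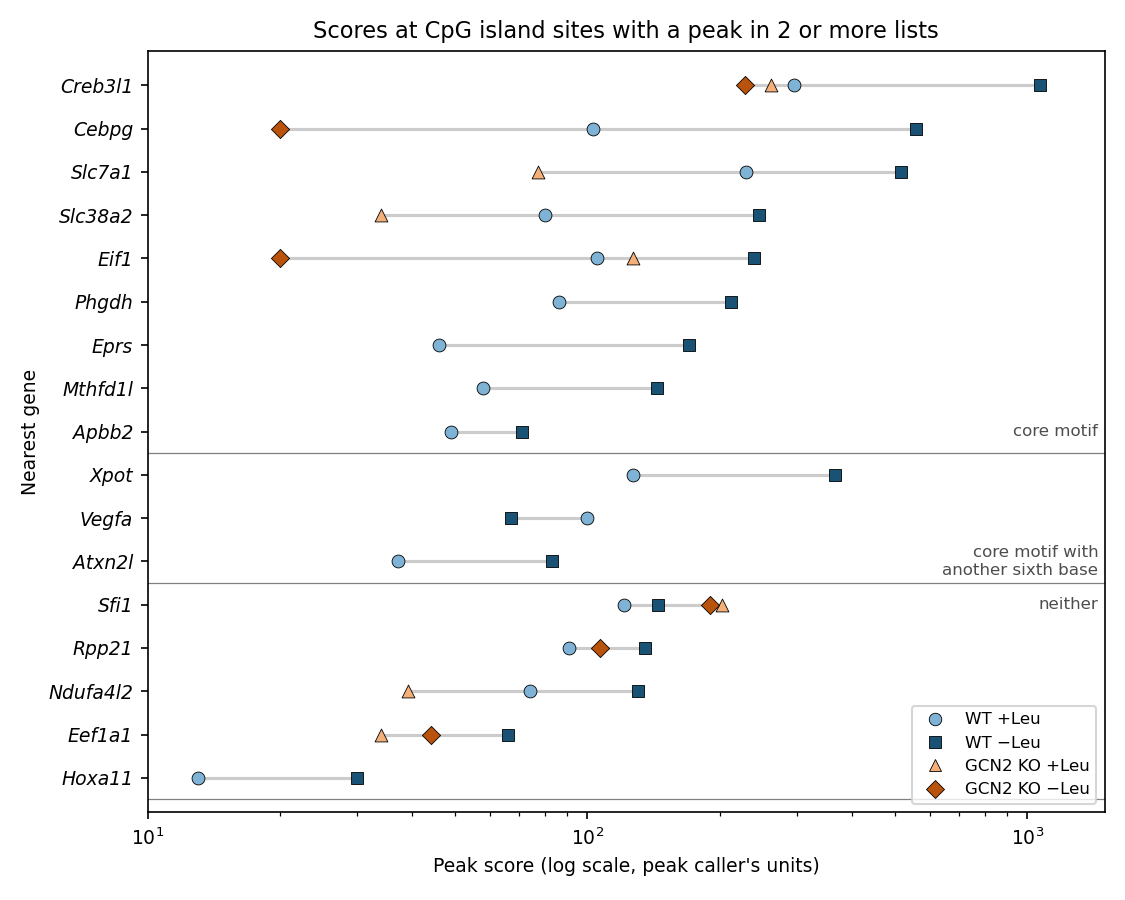
Peak score (x axis, log scale, in the units of the peak caller) in each list that held a peak at the 17 recurring sites (y axis, nearest gene), grouped by the core motif within 50 bp of a member's center, the motif with another sixth base, or neither. Squares for WT -Leu are the rightmost points at every site except Vegfa and Sfi1.

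The 3 recurring sites with another sixth base were listed in the WT lists alone. Xpot, the exportin that carries tRNAs out of the nucleus, scored 127 in WT +Leu and 365 in WT -Leu in the first intron, 310 and 359 bp from the TSS. Vegfa, the endothelial growth factor, scored 100 and 67 at 1835 and 1773 bp, the only recurring site that scored lower without leucine in WT. Atxn2l, a component of stress granules, scored 37 in WT +Leu, and its WT -Leu partner 65 bp away scored 83 but was annotated as intron without the CpG label. The other 3 sites of this kind were in WT -Leu alone. They were Mef2b, a MADS-box transcription factor, with a score of 126, Stc2, a secreted glycoprotein hormone, with 69, and the peak listed under Klf9 with 38.

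The remaining 5 recurring sites had neither form of the motif within 50 bp of a member's center, and 4 of them were listed in GCN2 KO. Sfi1, which encodes a centrosomal protein, had scores in GCN2 KO of 202 with leucine and 190 without it, 132 and 120 bp from the TSS. The WT peaks joined to it scored 121 and 145 and were annotated as promoter, 82 and 50 bp upstream of the TSS. The 4 centers spanned 214 bp, and whether they mark 1 site was not tested. Of the 3 sites with a peak in all 4 lists, Sfi1 was the only one at which both GCN2 KO scores exceeded both WT scores. No other match of the Sfi1 window met the limits given above. That search covered assembled chromosomes only and cannot show copies that the reference lacks.

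The site listed under Rpp21, a subunit of RNase P, was intergenic, 26.4 kb downstream of that TSS. Its scores were 91 in WT +Leu, 135 in WT -Leu and 107 in GCN2 KO -Leu. Eef1a1, the translation elongation factor that delivers aminoacyl-tRNAs to the ribosome, scored 66 in WT -Leu, and in GCN2 KO it scored 34 with leucine and 44 without it, in the first intron. At Rpp21 and Eef1a1 the values of the lists that held them lay within a narrower range than at Cebpg or Eif1, whose GCN2 KO -Leu scores were 20. A narrow range was not particular to sites without the motif, since Apbb2 ran from 49 to 71. The central 60 bases of the Rpp21 and Eef1a1 sites are chr17:36231379-36231438 and chr9:78480953-78481012 on the plus strand. They are shown as examples of strong or recurring members without the motif, and no letters are marked.
Rpp21: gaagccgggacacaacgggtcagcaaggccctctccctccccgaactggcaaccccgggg
Eef1a1: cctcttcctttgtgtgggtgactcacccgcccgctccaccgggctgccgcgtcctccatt
Ndufa4l2, a mitochondrial protein induced by low oxygen, had a member in GCN2 KO +Leu with a score of 39, with the core motif 78 bp from its center. The WT peaks 69 and 115 bp away scored 74 with leucine and 130 without it, had the core motif within 50 bp and were annotated as intergenic without the CpG label. Counting such partners, 10 of the 17 recurring sites had the core motif (58.8%, 36 to 78.4). The last site lay between 7247 and 7476 bp upstream of the TSS of Hoxa11, a homeobox factor, with scores of 13 in WT +Leu and 30 in WT -Leu and centers 229 bp apart.

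By gene group, amino acid genes and stress response genes were nearest to a small part of the members. Of 27 genes of amino acid synthesis and transport, 5 were nearest to a member, with 11 of the 138 members (7.97%), against 0.281% of the other intron and intergenic peaks and 3.5% of promoter peaks. They were Cbs, Mthfd1l, Phgdh, Slc38a2 and Slc7a1. Cbs, which makes cystathionine from serine and homocysteine, had a member in WT +Leu alone, with a score of 37. Of 24 genes of the integrated stress response, 3 had members (Cebpg, Kdm6b and Vegfa), 6 members in all (4.35%, against 0.248% and 6.23%). Kdm6b, a histone H3 lysine demethylase, had its member in WT +Leu alone, 2116 bp from the TSS, with a score of 36. Of 38 aminoacyl-tRNA synthetases, Eprs alone had members (1.45%, against 0.207% and 5.06%). These shares count a site once for each list in which it was a member. By unique gene, the share was 4.39% for the amino acid genes, against 0.193% and 2.3%. It was 2.63% for the stress response, against 0.193% and 2.76%, and 0.877% for the synthetases, against 0.232% and 2.07%. No member was nearest to any of 22 genes of mTOR signaling or 34 imprinted genes, which were nearest to 0.174% and 0.187% of the other intron and intergenic peaks. The shares of promoter peaks were 0.584% and 0%. At shares this low, finding none among 138 members does not set them apart from the other peaks.

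Developmental transcription factors were taken by family name (Hox, Pax, Sox, Fox, Nkx, Lhx, Gata, Tbx, sine oculis homeobox, Irx, Dlx, Zic, Pitx, Otx, Meis, Runx, Twist, Msx, Prrx, Tfap2, Ebf, Zeb, Emx, Gsx, Barx, Alx, Lmx1, Klf and Gli), and factors outside these families that were nearest to a member, such as Neurog1, Osr2 and Vax1, were not counted. The families were chosen with earlier results of these data known. They gave 11 members at 10 genes (7.97% of members, against 2.11% of the other intron and intergenic peaks and 0.778% of promoter peaks), shares that depend on this choice of families. Their scores ran from 13 to 38, and each but Hoxa11 was listed once. In WT +Leu these were Lhx9, a LIM homeobox factor of gonad and limb development, with a score of 26, Klf10, a factor induced by TGFβ, with 24, and Hoxa11 with 13. In WT -Leu they were Klf9 with 38, Foxa2, a forkhead factor of endoderm, with 34, Hoxa11 with 30 and Foxd3, a forkhead factor of the neural crest, with 23. In GCN2 KO they were Sox17, a factor of endoderm and endothelium, with 25, and Dlx3, a homeobox factor of skin and bone, with 23 with leucine, and Foxf2, a forkhead factor of mesenchyme, with 32 and Msx3, a homeobox factor of the dorsal neural tube, with 23 without it. Only the Klf9 member held TGATGNAA.

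The members of 1 list alone had a narrow range of scores. In WT they ran from 19 to 37 (median 29) at 23 sites with leucine and from 19 to 126 (median 33) at 41 sites without it. In GCN2 KO they ran from 15 to 34 (median 27) at 19 sites with leucine and from 21 to 41 (median 28.5) at 14 sites without it. Mef2b was the only one of the 97 to reach 100. In GCN2 KO -Leu the 5 highest members included Col26a1, a collagen gene, and Nxph1, which encodes a secreted ligand of neurexins, tied at 41 and found in no other list. Within 5 kb of a TSS lay 32 members in WT with leucine and 38 without it, and 22 in GCN2 KO with leucine and 15 without it. Of their target genes, 29 and 34 in WT and 20 and 13 in GCN2 KO had no other peak of the same list in that range. The same share was not counted for other peaks.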

How the data were processed

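The values were the authors' 4 annotated peak lists. Per the methods of the study and the labels' processing notes, the authors trimmed single 50 bp reads, aligned them to mm10 with BWA 0.7.12, called peaks with MACS2 2.1.0 (FDR cutoff 0.05, input of each genotype as control) and annotated the windows around the summits with HOMER 4.7. The deposited score is the peak caller's and is not normalized. The deposited CpG and GC contents are a fraction of each window's bases, printed here as percent, and distances to the TSS are in bp.

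From these lists the members, their recurrence (any peak with a center 300 bp or less away), motifs, gene starts and repeat masking were computed with Python 3.11.15, matplotlib 3.10.9, pysam 0.24.0, scipy 1.17.1, numpy 2.4.6 and pandas 2.3.3, and genomic copies with BLAST 2.17.0. The reference was GRCm38, which mm10 names, with GENCODE M21 starts. The listed GC content equalled that of the reference for every peak on chromosomes 1 to 19, X and Y. The sequence of 1 site is not reported here. Of the members, 1 lay on an unplaced contig and has no motif value. The counting of partners and motifs was checked on simulated peaks and sequences.

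Named are the 5 highest-scoring members of each list, every recurring site, every member with TGATGCAA, and members of the gene lists. Any other gene was named after its values were seen. Members and gene lists were chosen with earlier results of these data known. Sequencing depth is unknown and the 2 input libraries were not analysed here. Alternatives were other score, chromosome, TSS distance, center distance and motif settings.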

Additional observations from a re-analysis of the deposited data

Results flagged for a closer look

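The 2 genotypes moved in opposite directions without leucine in the following values, each from 1 library, and none of the differences between genotypes was tested. The number of CpG island peaks outside promoters changed by a ratio of 1.49 in WT and 0.769 in GCN2 KO (-Leu over +Leu), beside 1.31 and 0.749 for all peaks. The score at the Creb3l1 site changed by a ratio of 3.61 in WT and 0.87 in GCN2 KO. At Eif1 the ratios were 2.28 and 0.157, and the second rests on a GCN2 KO -Leu score of 20, near the lowest of its list. At Sfi1 the ratios were 1.2 and 0.941, and the WT peaks there were annotated as promoter. Over all peaks common to both lists of a genotype, the median ratio was 2.36 in WT (308 peaks) and 1 in GCN2 KO (98 peaks).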

How the results depend on the processing

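Of 58 alternative values for 14 shares and medians, 48 stayed inside the 95% interval of the reported value. Leaving out peaks within 1 kb of a TSS lowered the members' share of the list to 0.283% (+Leu) and 0.404% (-Leu) in WT and to 0.356% (+Leu) and 0.315% (-Leu) in GCN2 KO, since most members lay that close, and the share with TGATGCAA in WT -Leu to 8.7% (2 of 23). Keeping as many of the strongest peaks as the shortest list holds raised the members' share in WT -Leu to 1.16%. Among intergenic members alone the median score was 49 in WT +Leu (5 members) and 24.5 in GCN2 KO +Leu (6 members). The share of WT +Leu members with a WT -Leu peak was 54.2% at a score of 30 or more, and 23.6% when counted from the -Leu list. No paired analysis was possible because each condition had 1 library and no result came from a test. The limits are that the scores carry no known scale, that depth is unknown, that the shortest list held 20 members, and that a site missing from a list was not called there, which does not show that ATF4 was absent.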
